A study of Mus musculus with 6 samples.

Results

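Tumours grown in the pancreas of mice were examined for 7 genes of the CXC chemokine system that moves neutrophils: the ligands Cxcl1, Cxcl2, Cxcl3 and Cxcl5, their receptor Cxcr2, the ligand Cxcl12 and its receptor Cxcr4. The genes were taken by name, and all 7 were listed in each of the 6 single-cell matrices, among 29781 genes in all. The 3 anti-VSIG4 libraries came from wild-type C57BL/6J mice with orthotopic tumours of KPC cells, a mouse pancreatic cancer line, treated with the monoclonal antibody #44 against mouse VSIG4, an inhibitory receptor of macrophages. The 3 IgG libraries came from wild-type mice of the same strain with the same tumours, treated with IgG. All tumours were taken at day 11 after inoculation and gave 1 library per mouse. The labels used here state no dose or schedule. The tumour cells descend from 1 named line, the hosts kept their own immune system, and p-values measure the spread between 3 and 3 mice.

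Chemokines of the Cxcl1, Cxcl2, Cxcl3 and Cxcl5 group share a glutamate-leucine-arginine motif before the first cysteines and bind Cxcr2, a Gi-coupled receptor that drives neutrophils out of the marrow and towards inflamed tissue. Cxcl12 from stromal cells binds Cxcr4 and holds neutrophils in the marrow, and neutrophils that age in the blood lose Cxcr2 and gain Cxcr4. In pancreatic cancer models, neutrophils enter tumours largely through Cxcr2. Transcription of Cxcl1, Cxcl2 and Cxcl3 is known to be driven by NF-kB, the factor that interleukin 1 and TNF activate.

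The 150 bases before the gene starts of the inducible ligands and of Cxcl12 are shown because the 3 inducible ligands share a run of letters there that Cxcl12 lacks. They were taken from RefSeq on build GRCm38.p6, plus strand, at chr5:90891095-90891244 for Cxcl1, chr5:90903749-90903898 for Cxcl2, chr5:90785951-90786100 for Cxcl3 and chr6:117168385-117168534 for Cxcl12, with capitals on the longest run of letters that these 150 bases of Cxcl1, Cxcl2 and Cxcl3 share.
Cxcl1: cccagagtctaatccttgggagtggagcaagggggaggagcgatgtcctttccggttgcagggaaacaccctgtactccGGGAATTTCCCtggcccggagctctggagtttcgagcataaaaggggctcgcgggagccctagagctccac
Cxcl2: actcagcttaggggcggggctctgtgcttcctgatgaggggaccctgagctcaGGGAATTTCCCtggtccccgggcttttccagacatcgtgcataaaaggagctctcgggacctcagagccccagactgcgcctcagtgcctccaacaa
Cxcl3: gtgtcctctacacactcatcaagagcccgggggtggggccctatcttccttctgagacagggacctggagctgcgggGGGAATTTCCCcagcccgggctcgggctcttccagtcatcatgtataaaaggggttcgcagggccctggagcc
Cxcl12: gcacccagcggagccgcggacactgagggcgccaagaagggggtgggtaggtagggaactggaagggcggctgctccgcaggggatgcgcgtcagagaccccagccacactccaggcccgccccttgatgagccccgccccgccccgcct
The shared run, GGGAATTTCCC, was 11 bases long and began 71 bases before the start of Cxcl1, 97 before Cxcl2 and 73 before Cxcl3. It holds a form of the NF-kB site. Searched on both strands in the same 150 bases of all genes, it lay in 10 of 32851 RefSeq promoters (0.0304%), and not in those of Cxcl12, Cxcr2 or Cxcr4. Cxcl5 was not searched. The search was limited to bases before the start after a longer shared run, of 13 bases, was seen past the start of all 3 ligands. The run was found from these sequences, and a match is a description of the letters.

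The libraries held 26606234 to 47221033 UMIs (unique molecular identifiers, 1 per captured transcript), and 47603 of 47794 barcodes were kept. Cells were grouped into classes by fixed markers, with the 7 genes left out of the clustering; 15059 cells were neutrophil-like, 11248 monocyte/macrophage-like, 2652 tumour/epithelial-like, 900 fibroblast-like, 454 endothelial-like and 147 acinar-like, the exocrine cells of the pancreas. Nucleus-like cells, rich in long genes, made up 0.948, 0.417 and 5.39% of the anti-VSIG4 libraries and 0.825, 16.3 and 43.1% of the IgG libraries. Anti-VSIG4 1 and 2 and IgG 1, all under 1%, are called few-kind libraries and the other 3 many-kind. Between 1018 and 1827 cell names were shared by each pair of libraries, where names are running numbers. The neutrophil genes S100a8 and S100a9 reached 0.498 to 9.14% of their neutrophil level in the 9 other tested classes, the measure of free RNA used here.

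Levels are given as CPM, the UMIs of a gene per 1000000 UMIs of all cells of that class in a library, and each gene is compared with itself across classes. Among the 10 named classes with at least 20 cells in every library, the neutrophil was the highest class for Cxcl2, Cxcl3 and Cxcr2, the fibroblast for Cxcl1, the tumour/epithelial cell for Cxcl5, the endothelial cell for Cxcl12 and the NK cell for Cxcr4. Cxcl2 averaged 26450 ± 7403 CPM in neutrophils, 6079 ± 1605 in monocyte/macrophages and 1614 ± 635 in fibroblasts (SD, n = 6 libraries). A cluster of 1050 cells left unnamed, outside these classes, held 28978 ± 3393 CPM of Cxcl2. Cxcl3 averaged 739 ± 598 CPM in neutrophils and 214 ± 145 in monocyte/macrophages. Cxcl1 averaged 905 ± 257 CPM in fibroblasts, 428 ± 179 in monocyte/macrophages, 304 ± 213 in tumour/epithelial cells and 219.7 ± 75.4 in neutrophils.

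Cxcl5 had 2 sources, with 189.9 ± 120.3 CPM in tumour/epithelial cells and 52.6 ± 29.3 in fibroblasts, and averaged at most 7.21 CPM in the other tested classes. Cxcl12 averaged 206 ± 124 CPM in endothelial cells and 92.5 ± 17.3 in fibroblasts, and at most 1.83 CPM in the other tested classes. Cxcr2 averaged 589.9 ± 179.1 CPM in neutrophils and 34.3 ± 23.7 in NK cells, the next class. Cxcr4 was spread over leukocytes, with 294 ± 92.4 CPM in NK cells, 231 ± 83.8 in neutrophils, 113 ± 47.7 in T cells and 88.9 ± 25.4 in monocyte/macrophages. B cells, with 10 to 108 cells per library too few to be tested, had 241 ± 116 CPM of Cxcr4. The highest class stood above the next in 6 of 6 libraries for every gene but Cxcl12, where endothelial cells were above fibroblasts in 5 of 6. The exact sign-flip test over the 6 libraries gave p = 0.03125, its smallest possible value (adjusted p = 0.0365 over the 7 genes), for the 6 other genes and p = 0.09375 for Cxcl12. The classes compared were picked by their mean CPM in these same libraries. These p-values therefore describe how steady the margin was over libraries and are no test of the order. The margin of Cxcr4 in NK cells over neutrophils was 0.37 ± 0.27 on the log2 scale (SD), against 1.12 ± 0.46 for Cxcl1 in fibroblasts over monocyte/macrophages and 2.11 ± 0.23 for Cxcl2 in neutrophils over monocyte/macrophages.

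**Figure D1:**
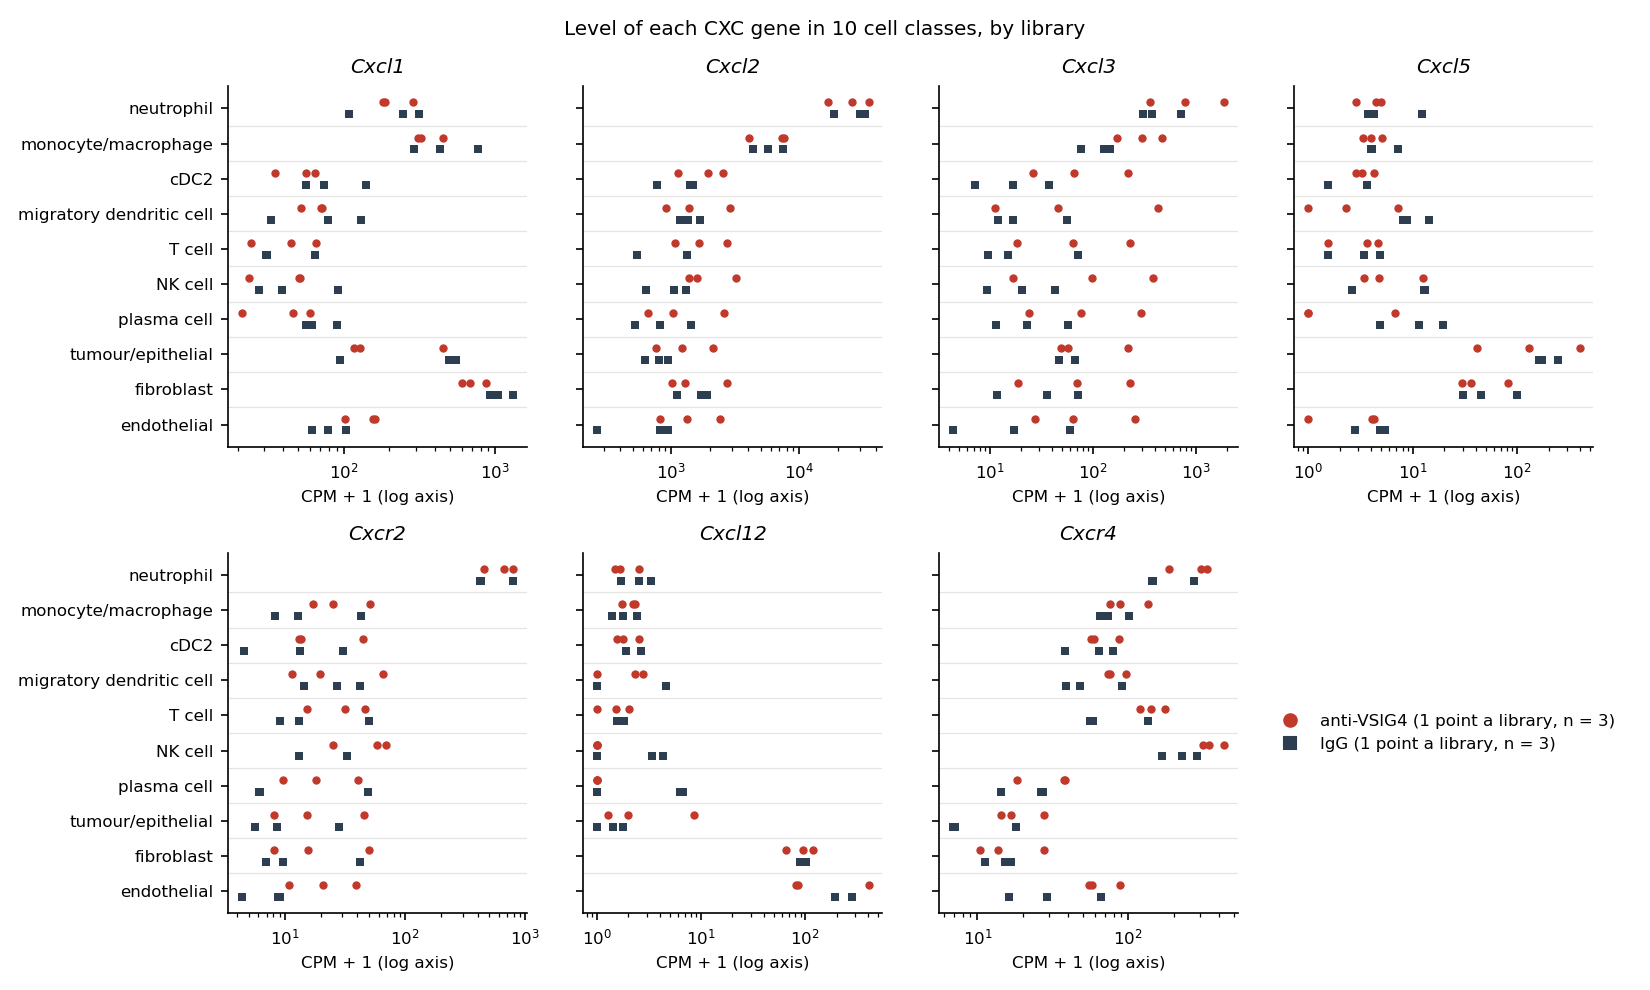
Level of the 7 genes in the 10 tested cell classes, as CPM + 1 on a log axis, with 1 point per library (circles anti-VSIG4, squares IgG, n = 3 each). Cxcl2, Cxcl3 and Cxcr2 peak in neutrophils, Cxcl1 in fibroblasts, Cxcl5 in tumour/epithelial cells, Cxcl12 in endothelial cells and fibroblasts, and Cxcr4 in NK cells and neutrophils.

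Free RNA was read beside these levels by dividing the ratio of each gene to S100a8 plus S100a9 in a class by the same ratio in neutrophils of that library, so that RNA spilled from neutrophils alone gives 1. Cxcr2 gave 0.534 to 3.13 in every class and library outside neutrophils, with medians from 0.804 to 1.36, so its low levels there were near what spilled neutrophil RNA would give. Cxcl2 in T cells gave 1.102 to 1.76 and Cxcl3 in T cells 1.13 to 2.02, also near that level. Monocyte/macrophages stood above it, at 4.60 to 16.9 for Cxcl2, 4.06 to 24.3 for Cxcl3 and 27.2 to 134 for Cxcl1. Cxcr4 in NK cells gave 14.1 to 87.9 and in T cells 8.37 to 26.8.

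Counting UMIs rather than levels, neutrophils held 49.3 ± 7.17% of all Cxcl2 UMIs and 40.3 ± 9.39% of Cxcl3 UMIs of a library (SD, n = 6), while making up 31.7% of kept cells on average. Monocyte/macrophages held a further 32.4 ± 6.56% of Cxcl2 and 35.6 ± 13.3% of Cxcl3. For Cxcl1 the order was different: monocyte/macrophages held 49.6 ± 14.7%, tumour/epithelial cells 18.1 ± 16.8%, fibroblasts 13.4 ± 7.42% and neutrophils 9.64 ± 5.35%. Fibroblasts, the class with the highest Cxcl1 level, were 1.93% of kept cells. Tumour/epithelial cells held 81.0 ± 11.4% of Cxcl5, and fibroblasts with endothelial cells shared Cxcl12, at 44.1 ± 11.9% and 42.0 ± 14.1%. Neutrophils held 77.1 ± 5.63% of Cxcr2, whereas Cxcr4 was split between monocyte/macrophages (31.3 ± 5.10%), neutrophils (28.4 ± 6.85%) and T cells (14.6 ± 7.68%).

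The share of Cxcl1 held by monocyte/macrophages was 54.6, 64.4 and 55.1% in the anti-VSIG4 libraries and 52.8, 49.3 and 21.4% in the IgG libraries. The groups did not overlap, and the means were 58.0 ± 5.51% and 41.2 ± 17.2% (SD, n = 3 each, exact permutation p = 0.1, the smallest possible, adjusted p = 0.5 over 5 ligands). Without IgG 3 the difference was 7.01 points, against 16.9 with it. The low IgG library was IgG 3, in which tumour/epithelial cells held 48.9% of Cxcl1 and nucleus-like cells made up 43.1% of cells; the part of that library's makeup in the result was not tested. For the 4 other ligands the share of the leading class gave exact permutation p from 0.3 to 0.9.

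**Figure D2:**
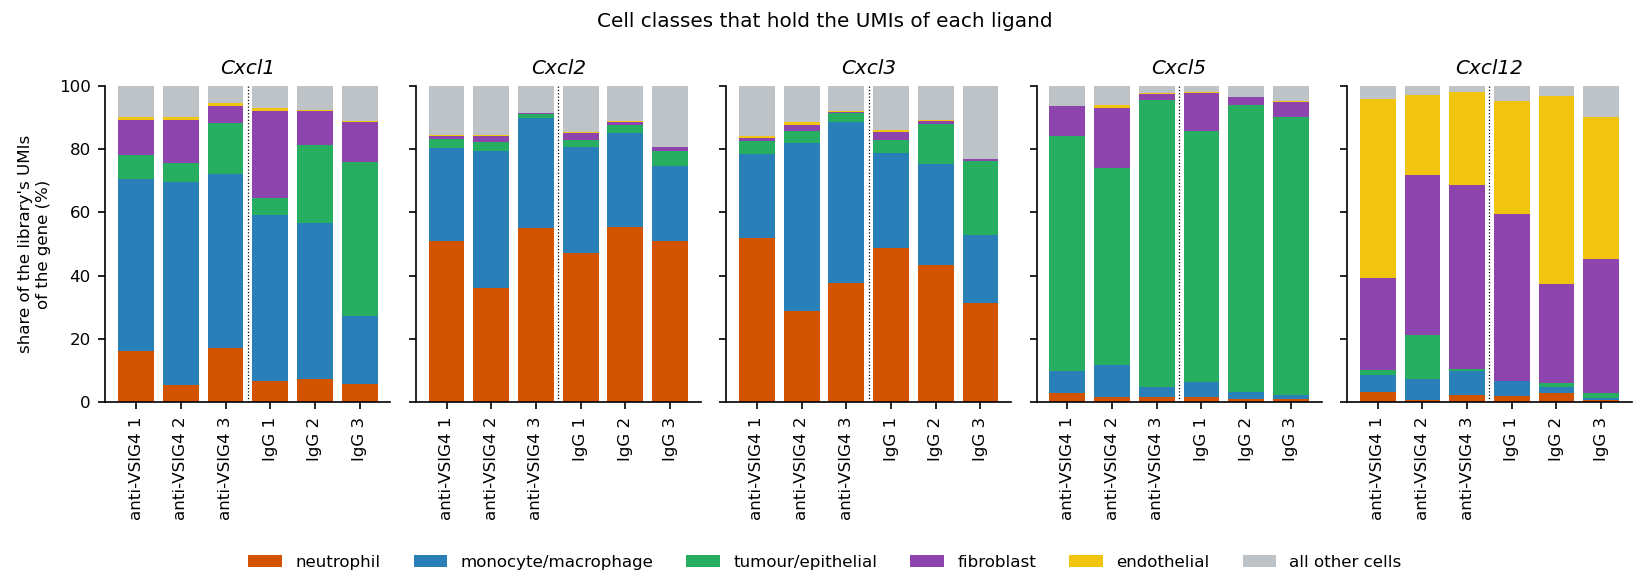
Share of each library's UMIs of a ligand held by each cell class, in percent, with 1 bar per library (anti-VSIG4 left of the dotted line, IgG right). Cxcl2 and Cxcl3 come mostly from neutrophils and monocyte/macrophages, Cxcl5 from tumour/epithelial cells and Cxcl12 from fibroblasts and endothelial cells. For Cxcl1 the monocyte/macrophages hold the largest share in every library but IgG 3, where tumour/epithelial cells do.

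Within a class the ligands were made unevenly. The 5% of tumour/epithelial cells with the most UMIs of the gene held 73.1% of Cxcl5 and 74.9% of Cxcl1 UMIs of that class, with up to 205 Cxcl5 and 459 Cxcl1 UMIs in a cell and a median of 0. Cxcl2 was the opposite case, since 98.4% of neutrophils held a Cxcl2 UMI, the median cell held 33, and the top 5% held 22.2%. Those shares are not corrected for the depth of each cell. The cells of all 6 libraries were pooled for them, so differences between mice are part of the unevenness.

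Among monocyte/macrophages, the Cxcl1 UMIs lay mainly in a cluster of 1662 cells led by Saa3, an acute-phase protein, and Arg1, an enzyme of alternatively activated macrophages. That cluster was 14.8% of the class and held 54.7% of its Cxcl1, 35.3% of its Cxcl3 and 35.0% of its Cxcl2 UMIs. Cxcl1 averaged 1196 ± 220 CPM there, against 209 ± 61.0 CPM in the largest cluster (6107 cells, led by C1qa and Apoe) (SD, n = 6).

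Anti-VSIG4 libraries were then set against IgG libraries gene by gene in 10 classes with edgeR's quasi-likelihood test on summed counts. The 7 genes gave 56 tests, as a gene with too few counts in a class was left out. None passed the false discovery rate of 0.05, where 0.00235% of all 85254 gene-by-class tests did. At an unadjusted p under 0.05 there were 8 of 56, against 5.09% of all tests, and DESeq2 called 1, Cxcl3 in monocyte/macrophages, where it called 0.113% of all tests. The groups did not overlap in 4 of the 56 pairs, 3 higher and 1 lower in anti-VSIG4, against 4.56% of all tests higher and 5.48% lower. Of the 40 pairs at 50 CPM or more, log2 changes ran from -0.90 to 2.86, 31 being positive and 9 negative. These pairs count a gene once per class. Cxcl2 gave 10 of the positive pairs, Cxcl3 10 and Cxcr4 7, and Cxcl1 gave 6 of the negative pairs. The median log2 change over all genes of a class ran from -0.0164 in endothelial cells to 0.0147 in migratory dendritic cells. The share of positive changes over all genes was not taken.

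Cxcl3 in monocyte/macrophages had the smallest p of the 56. It stood at 468, 297 and 169 CPM in the anti-VSIG4 libraries and at 145, 128 and 75.9 CPM in the IgG libraries. Every anti-VSIG4 library was above every IgG library, which held for 4.05% of the genes tested in this class in that direction. The log2 change was 1.38 ± 0.33 (SE, edgeR adjusted p = 0.995), and the DESeq2 adjusted p was 0.0114, within a range of 2.23e-06 to 1.00 over the alternatives. The few-kind libraries alone gave 468 and 297 CPM against 145 CPM, and the many-kind libraries 169 CPM against 128 and 75.9 CPM. S100a8 plus S100a9 in the same cells moved along with it, at 2165, 611 and 588 CPM in anti-VSIG4 and 1139, 398 and 184 CPM in IgG libraries, while Cxcl3 was 4.06 to 24.3 times what neutrophil RNA at that level would give.

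In the Saa3 and Arg1 cluster, Cxcl3 reached 1294, 880 and 582 CPM in anti-VSIG4 libraries, against 354, 233 and 145 CPM in IgG libraries. The groups were clear of each other, with means of 919 ± 358 and 244 ± 105 CPM (SD, n = 3 each, exact permutation p = 0.1, the smallest possible). In the C1qa and Apoe cluster the libraries overlapped, at 412, 173 and 89.3 CPM in anti-VSIG4 and 122, 48.7 and 37.3 CPM in IgG (exact permutation p = 0.2). In the same cluster led by Saa3 and Arg1, Cxcl1 averaged 1149 ± 184 CPM in anti-VSIG4 and 1243 ± 284 CPM in IgG libraries (exact permutation p = 0.7). The split of Cxcl3 and Cxcl1 there was not tested as a difference between genes.

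In neutrophils Cxcl3 stood at 1886, 791 and 361 CPM in anti-VSIG4 and 722, 372 and 303 CPM in IgG libraries. The groups overlapped, with a log2 change of 1.24 ± 0.66 (SE, edgeR adjusted p = 0.846), or 0.33 without anti-VSIG4 1. All 10 classes had positive Cxcl3 changes, from 0.88 to 2.86. The classes share libraries and free RNA, so these are not 10 separate results. The median free RNA measure of Cxcl3 was 13.7 in monocyte/macrophages and 7.05 in tumour/epithelial cells. In the other classes outside neutrophils it was 1.79 to 3.46. The part of spilled neutrophil RNA in these changes was not tested. Without anti-VSIG4 1 the change was 0.12 in migratory dendritic cells, against 2.54 with it, and 0.69 over all cells, against 1.56 with it. Anti-VSIG4 1 was the highest library in neutrophils, monocyte/macrophages and NK cells alike. In NK cells it had 382 CPM, with 97.9 and 15.9 CPM in the other anti-VSIG4 libraries and 41.4, 19.6 and 8.35 CPM in IgG libraries, where the free RNA measure was 1.65 to 2.32.

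Cxcl2, the most widespread ligand, had 25866, 16751 and 34881 CPM in neutrophils of anti-VSIG4 libraries and 18791, 29691 and 32721 CPM in those of IgG libraries. The groups overlapped and the log2 change was 0.06 ± 0.31 (SE, edgeR adjusted p = 0.981). In monocyte/macrophages Cxcl2 had 7278, 4062 and 7618 CPM against 4364, 7465 and 5688 CPM in IgG libraries (log2 change 0.10 ± 0.32, adjusted p = 1.00). NK cells gave a separation, at 3218, 1369 and 1593 CPM in anti-VSIG4 and 1057, 1299 and 639 CPM in IgG libraries (log2 change 1.08 ± 0.40, edgeR adjusted p = 0.870, where 3.78% of genes in this class were clear of overlap and higher). The NK values were 1.33 to 2.40 times what spilled neutrophil RNA would give, and S100a8 plus S100a9 stood at 3235, 1397 and 514 CPM in the anti-VSIG4 and 1021, 364 and 262 CPM in the IgG libraries; their part in the result was not tested.

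Cxcl1 went the other way in fibroblasts, its highest class, with 872, 603 and 678 CPM in anti-VSIG4 and 917, 1312 and 1048 CPM in IgG libraries. Every anti-VSIG4 library was below every IgG library, as for 4.97% of genes in fibroblasts. The log2 change was -0.65 ± 0.23 (SE, edgeR adjusted p = 0.712), from 54 to 183 anti-VSIG4 and 142 to 230 IgG fibroblasts per library. In monocyte/macrophages Cxcl1 had 309.6, 448 and 322 CPM against 288, 766 and 432 CPM in IgG libraries (log2 change -0.51 ± 0.36, adjusted p = 1.00, or -0.0030 without IgG 2), and in tumour/epithelial cells 127, 115 and 452 CPM against 92.9, 490.3 and 546 CPM (log2 change -0.66 ± 0.74, adjusted p = 0.998). In the tumour/epithelial cells the 3 few-kind libraries were low and the 3 many-kind libraries high whatever the treatment. Of the 8 classes with at least 50 CPM of Cxcl1, 6 had negative and 2 positive changes. The positive ones were neutrophils (0.10 ± 0.36, adjusted p = 0.975) and endothelial cells (0.70 ± 0.28, adjusted p = 0.890). Endothelial cells had 155, 101 and 159 CPM in anti-VSIG4 and 103, 77.9 and 61.2 CPM in IgG libraries, with overlap.

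Cxcl5 in tumour/epithelial cells ran from 39.97 to 395 CPM among anti-VSIG4 libraries (129.7, 39.97 and 395) and stood at 159, 171 and 245 CPM in IgG libraries. The anti-VSIG4 libraries lay on both sides of the IgG range (log2 change 0.01 ± 0.70, SE, edgeR adjusted p = 1.00). In fibroblasts Cxcl5 had 80.4, 28.6 and 35.1 CPM against 44.4, 29.6 and 97.8 CPM in IgG libraries (log2 change -0.29 ± 0.48, adjusted p = 0.957). Cxcl12 in endothelial cells was 406, 80.7 and 83.8 CPM in anti-VSIG4 and 193, 279 and 191 CPM in IgG libraries, so that 1 anti-VSIG4 library was above and 2 were below all IgG libraries (log2 change -0.38 ± 0.68, adjusted p = 0.993). That change was -1.48 without anti-VSIG4 1 and -0.0039 without anti-VSIG4 2. In fibroblasts Cxcl12 was 94.7, 64.5 and 117 CPM against 90.6, 101 and 87.0 CPM (log2 change -0.07 ± 0.25, adjusted p = 0.978).

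**Figure D3:**
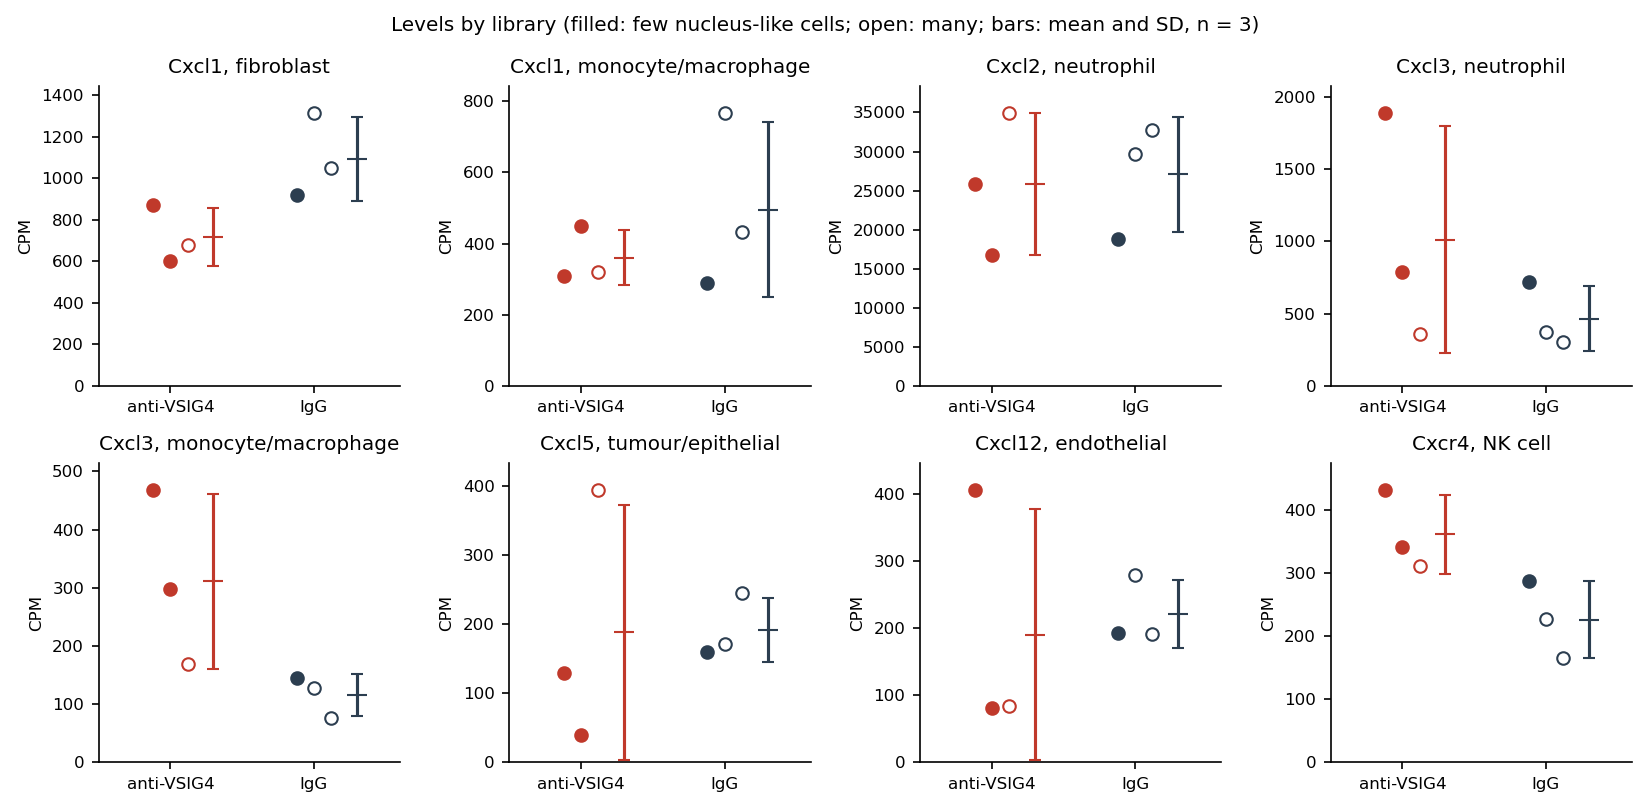
CPM of 6 genes in 8 pairs of a gene and a cell class, with 1 point per library and the mean with SD (n = 3). Anti-VSIG4 is left and IgG right, and filled points are few-kind and open points many-kind libraries. The groups are clear of each other for Cxcl1 in fibroblasts, Cxcl3 in monocyte/macrophages and Cxcr4 in NK cells and overlap in the 5 other panels.

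Over all kept cells none of the 7 genes passed edgeR's test, where 0% of 17976 genes did. An unadjusted p under 0.05 was found for 1 of the 7, against 1381 of the 17976. DESeq2 called 0 of the 7, where it called 8 genes higher and 11 lower of all 17976. Cxcl3 had 626, 205 and 147 CPM in anti-VSIG4 and 183, 126 and 58.6 CPM in IgG libraries (log2 change 1.56 ± 0.65, SE, edgeR adjusted p = 0.600). Cxcl12 was the gene without overlap, at 8.09, 7.35 and 4.34 CPM in anti-VSIG4 and 10.6, 12.7 and 8.10 CPM in IgG libraries (log2 change not given below 50 CPM, edgeR adjusted p = 0.613), as were 12.5% of genes in that direction. In such sums fewer cells of a type and less RNA per cell cannot be told apart.

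Cxcr2 and Cxcr4 were followed across neutrophils and their sub-clusters, which were built after the libraries had been integrated. Early-like cells (sub-cluster 2, 3107 cells, led by Retnlg and Ccl6) had the most Cxcr2, with 979 ± 330 CPM (SD, n = 6). Interferon-like cells (sub-cluster 3, 2023 cells, led by Cxcl10 and Gbp5) had 886 ± 209 CPM, cytokine-like cells (sub-cluster 0, 5101 cells, led by Il23a and Tnf) 478 ± 92.1 CPM, and the unnamed sub-cluster 1 (4062 cells, led by the heat shock genes Hspa1a and Hspa1b) 283 ± 55.5 CPM. Cxcr4 ran in a different order, with 360.3 ± 119.9 CPM in interferon-like, 277 ± 122 in early-like, 218 ± 72.6 in cytokine-like and 145 ± 53.7 CPM in unnamed 1. Cxcl3 was highest in early-like cells, at 1705 ± 1008 CPM, and Cxcl2 in cytokine-like cells, at 36530 ± 8696 CPM. Sub-clusters were made from these cells, so their levels are a description.

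Between treatments, Cxcr2 in neutrophils had 786, 667 and 448 CPM in anti-VSIG4 and 791, 421 and 426 CPM in IgG libraries (log2 change 0.31 ± 0.31, SE, edgeR adjusted p = 0.896). The change was 0.07 without anti-VSIG4 1 and 0.70 without IgG 1. The 3 few-kind libraries held the 3 highest values in both groups. Cxcr4 had 334, 304.3 and 186 CPM in anti-VSIG4 and 274, 144 and 143 CPM in IgG libraries (log2 change 0.65 ± 0.32, adjusted p = 0.836). None of 25 tests in 5 sub-clusters passed edgeR's test, where 0.00745% of all sub-cluster tests did. At an unadjusted p under 0.05 there were 3, all of Cxcr4 and all positive, against 6.64% of all tests, and DESeq2 called 0, where it called 0.0782% of all tests. The groups did not overlap in 1 of the 25, higher in anti-VSIG4, against 4.42% of all tests higher and 7.97% lower. In unnamed 1 Cxcr4 was 232, 180.1 and 130.3 CPM in anti-VSIG4 and 128, 122 and 76.8 CPM in IgG libraries, without overlap, as were 4.03% of genes there in that direction (log2 change 0.79 ± 0.25, edgeR adjusted p = 0.569).

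The ratio of Cxcr4 to Cxcr2 UMIs was then taken within the neutrophils of each library. Its log2 was -1.23, -1.13 and -1.27 in anti-VSIG4 libraries and -1.53, -1.54 and -1.57 in IgG libraries. Every anti-VSIG4 library was above every IgG library, with means of -1.21 ± 0.07 and -1.55 ± 0.02 (SD, n = 3 each) and a difference of 0.34 (exact permutation p = 0.1, the smallest possible with 3 and 3). The difference was positive in the few-kind and in the many-kind libraries taken alone, at 0.35 and 0.29, each with 3 libraries.

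The same ratio did not overlap in cytokine-like, early-like and interferon-like 3 neutrophils, with differences of 0.38, 0.43 and 0.38 (exact permutation p = 0.1 each). The gaps were narrow. The lowest anti-VSIG4 and highest IgG values were -1.389 and -1.396 in interferon-like 3, -1.845 and -1.899 in early-like and -1.07 and -1.17 in cytokine-like cells. These cells are parts of the same neutrophils and libraries, so they are no separate support for the ratio in all neutrophils. In unnamed 1 it was -0.67, -0.64 and -1.24 in anti-VSIG4 and -1.02, -1.21 and -1.38 in IgG libraries, with overlap (difference 0.35, exact permutation p = 0.3). In the 3 other sub-clusters with a value in each library, of 147 to 393 cells, differences were 0.18, 0.24 and 0.16 with overlap. The choice of the ratio was made with earlier results of these data known, and no test across all gene pairs was run.

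**Figure D4:**
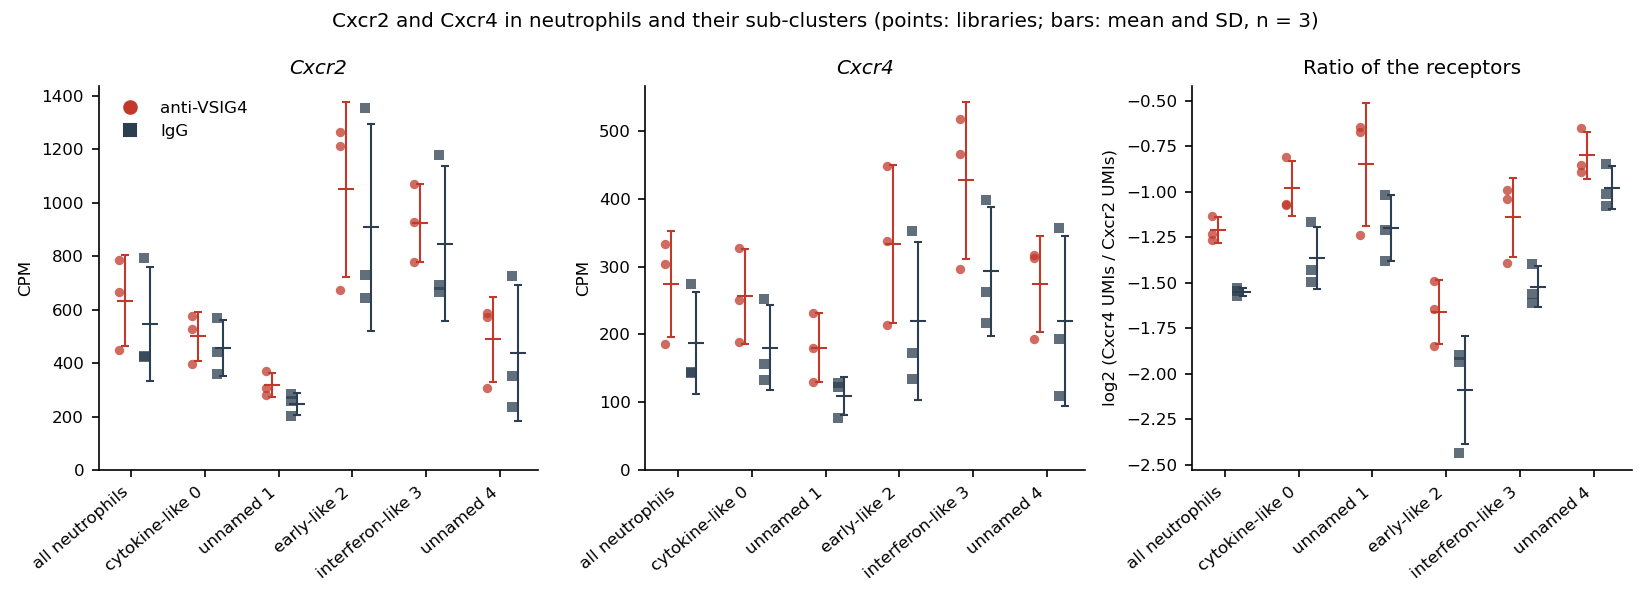
Cxcr2 and Cxcr4 in CPM and the log2 ratio of their UMIs in all neutrophils and in 5 sub-clusters, with 1 point per library (circles anti-VSIG4, left of squares IgG) and the mean with SD (n = 3). Levels overlap between treatments except Cxcr4 in unnamed 1, while the ratio is clear of overlap in all neutrophils and in cytokine-like, early-like and interferon-like cells.

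After each neutrophil was thinned to 1000 UMIs, 37.2 ± 8.10% held a Cxcr2 UMI in anti-VSIG4 and 32.4 ± 9.03% in IgG libraries (SD, n = 3 each, exact permutation p = 0.5; 49.4% and 42.3% unthinned). A Cxcr4 UMI was held by 20.4 ± 5.29% and 14.7 ± 5.01% (exact permutation p = 0.2; 30.3% and 21.2% unthinned). Without anti-VSIG4 1 the Cxcr2 difference was 0.856 points, against 4.85 with it. Tumour/epithelial cells, taken as the background class, gave 2.16% and 2.04% for Cxcr2 and 2.04% and 1.41% for Cxcr4 in anti-VSIG4 and IgG libraries after the same thinning, at median depths of 6307 UMIs against 1581 in neutrophils. Their free RNA measure was 1.07 to 1.39 for Cxcr2 and 1.87 to 6.28 for Cxcr4, so Cxcr4 there stood above what spilled neutrophil RNA alone gives. The share of thinned cells with UMIs of both receptors was 1.05 to 1.25 times the product of the shares with each, and above that product in 6 of 6 libraries.

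Cxcr4 in NK cells, its highest class, was 432, 342 and 312 CPM in anti-VSIG4 and 287, 227 and 166 CPM in IgG libraries. The groups were clear of each other, as were 3.78% of genes in NK cells in that direction (log2 change 0.72 ± 0.22, SE, edgeR adjusted p = 0.800). In T cells it was 173, 141 and 119 CPM against 134, 54.9 and 57.2 CPM, with IgG 1 among the anti-VSIG4 values (log2 change 0.85 ± 0.31, adjusted p = 1.00). All 7 classes with at least 50 CPM of Cxcr4 had positive changes, from 0.15 to 0.87, and none passed the test.

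Other genes of the system came from 7 lists with 72 genes. None of 509 list-gene tests in the 10 classes passed edgeR's test, against 0.00235% of all tests. An unadjusted p under 0.05 was found in 53 (10.4%), against 5.09% of all tests, and DESeq2 called 1, Csf3 in fibroblasts, against 0.113% of all tests. Inducers of the Cxcr2 ligands had a median log2 change of 0.27 over 7 tested genes in neutrophils, against -0.01 over all genes, with 5 positive and 2 negative. Among them Il1b averaged 20223 ± 2308 CPM in anti-VSIG4 and 16534 ± 2819 CPM in IgG neutrophils (adjusted p = 0.836). In monocyte/macrophages Il1b had 7014, 6240 and 6677 CPM in anti-VSIG4 and 5439, 4935 and 3985 CPM in IgG libraries, and every anti-VSIG4 library was above every IgG library, as for 4.05% of genes in this class (log2 change 0.46 ± 0.19, adjusted p = 1.00).

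Other attractant receptors, such as Ccrl2, a chemerin-binding receptor, and Ccr1, had a median of 0.28 over 9 tested genes in neutrophils, 8 positive and 1 negative. Other CXC ligands (median 0.08, 5 tested), other CXC and atypical receptors (0.79, 4 tested) and genes of neutrophil production and release (0.13, 7 tested) were also positive in the median in neutrophils. Signalling and desensitisation genes, such as Gnai2, the G protein subunit under Cxcr2, and Grk2, a kinase that desensitises such receptors, had a median of 0.03 over 15 tested genes in neutrophils. NF-kB feedback genes, such as Nfkbia, the inhibitor of NF-kB, had a median of 0.14 over 12 genes in neutrophils and 0.02 in monocyte/macrophages. In fibroblasts the median was -0.38, where 10 of 12 were negative and the median of all genes was 0.00. Fibroblasts were not alone in this: plasma cells had -0.43 with 11 of 12 negative, and migratory dendritic cells -0.13 with 9 of 12 negative. T cells (0.16, 11 of 12 positive) and NK cells (0.21, 10 of 12 positive) went the other way. Nfkbiz in fibroblasts averaged 264 CPM in anti-VSIG4 and 398 CPM in IgG libraries (edgeR adjusted p = 0.712).

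Ackr3, the scavenger receptor of Cxcl12, was 47.8, 34.1 and 15.2 CPM in anti-VSIG4 and 139.8, 67.2 and 70.4 CPM in IgG fibroblasts. The groups did not overlap, as for 4.97% of genes in fibroblasts in that direction (log2 change -1.53 ± 0.42, SE, edgeR adjusted p = 0.561). Ackr3 was picked out after its values were seen, so this separation is a description and supports nothing. Csf3, the growth factor that releases neutrophils from the marrow, was chosen after its values were seen, and was 24.9, 9.12 and 4.68 CPM in anti-VSIG4 and 72.4, 139 and 51.0 CPM in IgG fibroblasts. All anti-VSIG4 values were below all IgG values, the pattern for which the gene was picked, so they are a description and support nothing (log2 change -2.82 ± 0.60, edgeR adjusted p = 0.418, DESeq2 adjusted p = 1.36e-04, range over the alternatives 2.38e-12 to 0.948). Fibroblast numbers were 82, 183 and 54 in anti-VSIG4 and 209, 142 and 230 in IgG libraries.

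The genes whose levels were most like each member over 60 class-by-library sums of 10 classes were found by Pearson's r on log2(CPM + 10), among 5347 genes. They were Il1a (0.97), Rab20 and Cebpb for Cxcl2, and Csf3r (0.97), S100a8 and Hdc for Cxcr2. For Cxcl12 they were Rhoj (0.98), Prss23 and Dlc1, and for Cxcl5 Myrf, Fat1 and AI661453, at 0.92 to 0.93. Cxcl1 was nearest to Rhou, Lrp1 and Phlda1, Cxcl3 to Cstdc4, C5ar1 and Clec4d, and Cxcr4 to Inpp5d, Tnfrsf1b and Dusp2, all at 0.87 to 0.89. The sums share libraries and depth, so these values describe likeness over classes.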

How the data were processed

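Single-cell RNA was measured in 6 libraries, 1 per mouse (3 anti-VSIG4, 3 IgG). The authors deposited raw UMI counts per gene and cell, made with PISA 1.0 per the file headers; STAR and Seurat 4.11 are named per the submitters' processing notes, with the build not given in the sources used here. Cells with at least 500 UMIs, 300 genes and at most 20% mitochondrial UMIs were kept, of 26606234 to 47221033 UMIs per library. They were clustered with scanpy 1.11.5 (3000 variable genes without the 7 members, 40 components, 20 neighbours, Leiden resolution 1.0) and named from marker lists; a cluster of mixed islet, red cell and mast cell genes was set aside after its genes were seen. Neutrophils were integrated and sub-clustered with Seurat 5.3.0. Scrublet marked 0 cells and so had not worked; an alternative removed the 6% with the highest scores.

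Sums of UMIs by class and library were tested with edgeR 4.0.16 (quasi-likelihood test, Benjamini-Hochberg adjustment over all genes of a class, threshold 0.05), with DESeq2 1.42.0 as an alternative; R was 4.3.3. Standard errors were taken from the fold change and its F. On simulated neutrophil counts of 10825 genes the test recovered 20% of 2-fold and 79% of 4-fold changes (100 genes each), with 12 false calls. Single values were compared with exact permutation tests, two-sided, where 3 against 3 cannot go below 0.1. Depth limits low genes, and intervals between mice come from 3 per group. All 7 members are named, with log2 changes at 50 CPM or more; of the lists, up to 4 genes by level. The members and lists were chosen with earlier results of these data known. Promoters are from RefSeq, with 6 of 7 members matched (not Cxcl5).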

Additional observations from a re-analysis of the deposited data

How the results depend on the processing

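With 3 mice per group, low counts and 10 or more cell classes, a change smaller than the spread between mice was not detectable. The libraries were not treated as pairs by replicate number. Deviations of same-numbered libraries correlated at 0.32, -0.38 and 0.18 over all cells, at 0.48, -0.25 and 0.52 in neutrophils and at 0.41, -0.32 and 0.51 in monocyte/macrophages. Anti-VSIG4 3 and IgG 2, which differ in number, gave 0.43, 0.58 and 0.50 in the same order. With 3 libraries per group these values cannot settle whether the libraries were paired. No member passed in a class in the reported fit. By DESeq2 1 did, where it called 0.113% of all tests. With no filter on low counts 3 did. That fit called from 13 genes higher and 5 lower of 19359 in cDC2 to 27 higher and 141 lower of 20661 in fibroblasts. With the replicate block 6 did. It called from 0 of 13003 genes in monocyte/macrophages to 6 higher and 45 lower of 5071 in migratory dendritic cells. Without 1 library 0 to 1 did. The 1 was Cxcr2 in NK cells without anti-VSIG4 replicate 3, where 26 genes were called higher and 1 lower of 6444. The few-kind and many-kind fits leave 1 library in a group, so no count is given for them. In the sub-clusters 1 passed with the replicate block, which called 33 genes higher and 6 lower of 7536 in unnamed 1 and 0 of 4964 in early-like cells. The cause of these differences was not tested.

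Directions turned as follows on the log2 scale. With the replicate block Cxcl2 in fibroblasts was -0.035 and Cxcl5 in tumour/epithelial cells -0.50. With library kind as a covariate Cxcl2 in fibroblasts was -0.11, Cxcl1 in tumour/epithelial cells 0.10 and Cxcl12 in fibroblasts 0.0072. In the few-kind libraries alone Cxcr2 in neutrophils was -0.067, Cxcl1 in monocyte/macrophages 0.42, Cxcl1 in tumour/epithelial cells 0.34, Cxcl12 in endothelial cells 0.16, Cxcl5 in tumour/epithelial cells -0.93 and Cxcl5 in fibroblasts 0.19. In the many-kind libraries alone Cxcl2 in fibroblasts was -0.29 and Cxcl12 in fibroblasts 0.26, and with no filter Cxcl5 in tumour/epithelial cells was -0.0077. The cause was not tested.

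Leaving out 1 library gave ranges that crossed 0 for Cxcl2 in neutrophils (-0.23 to 0.34), monocyte/macrophages (-0.15 to 0.35) and fibroblasts (-0.49 to 0.27), Cxcl5 in tumour/epithelial cells (-1.15 to 0.50) and fibroblasts (-0.86 to 0.28), Cxcl12 in fibroblasts (-0.27 to 0.12), Cxcl1 over all cells (-0.48 to 0.13) and Cxcr4 in unnamed 4 (-0.011 to 0.86). The differences in the leading class's share ran from 7.01 to 22.7 points for Cxcl1, -7.68 to 1.90 points for Cxcl2, -8.03 to 3.64 for Cxcl3 and -2.18 to 12.2 for Cxcl12. The order of the highest classes was tried without 1 library after seeing the data, where 5 libraries cannot give a p under 0.0625: the log2 margins were 1.01 to 1.26 for Cxcl1, 2.03 to 2.17 for Cxcl2, 1.61 to 1.85 for Cxcl3, 1.36 to 1.95 for Cxcl5, 4.16 to 4.47 for Cxcr2 and 0.29 to 0.43 for Cxcr4. Without 1 library the log2 change was -0.81 to -0.0030 for Cxcl1 in monocyte/macrophages, -1.63 to -0.31 for Cxcl1 in tumour/epithelial cells, -1.48 to -0.0039 for Cxcl12 in endothelial cells, 0.12 to 3.70 for Cxcl3 in migratory dendritic cells, 0.69 to 2.09 for Cxcl3 over all cells, 0.07 to 0.70 for Cxcr2 and 0.43 to 1.06 for Cxcr4 in neutrophils. The share of neutrophils with a UMI differed by 0.856 to 10.1 points for Cxcr2 and 3.40 to 8.59 for Cxcr4. The Cxcr4 to Cxcr2 ratio kept a difference of 0.30 to 0.37.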

Other observations

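A cluster of 1050 cells raised 10 neutrophil markers but stayed unnamed, since its 10 leading genes (Hcar2, Ccl3 and Cstdc4 first) held 1 marker of another class and 0 of its own. It held 28978 ± 3393 CPM of Cxcl2 (SD, n = 6 libraries). Its Cxcr4 was 212, 178 and 158 CPM in anti-VSIG4 and 136, 85.0 and 138 CPM in IgG libraries. Its log2 ratio of Cxcr4 to Cxcr2 was 0.13, 1.36 and 0.79 in anti-VSIG4 and -0.45, -0.36 and 2.32 in IgG libraries, with overlap (exact permutation p = 0.8). Adding these cells to the neutrophils, an alternative chosen after seeing the data, gave a ratio difference of 0.33, against 0.34 without them.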
